A study of Homo sapiens with 24 samples.

Results

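Antisense long non-coding RNA genes of 22Rv1 prostate carcinoma cells were examined after exposure to the compounds KB02 or KB05. Genes were taken by symbol, as those ending in -AS1 to -AS9, with EPB41L4A-AS1 left out, and with estimated read counts that summed to at least 200 over all 9 libraries. Of 60232 gene identifiers in the count table, 1821 carried such a symbol, 463 of these had no count in any library, and 356 met the rule. The sum was the value that chose them, and it pooled treated and control libraries. The genes just inside it were KCNMB2-AS1 with a summed count of 204.059, HOXC-AS1 with 205 and BAZ1A-AS1 with 206.755. Just outside it lay PRMT5-AS1 with 198.565, ARRDC3-AS1 with 196.842 and PSMB8-AS1 with 194.546. Each antisense gene was set beside its sense partner, the gene whose symbol precedes -AS. The partner was in the table for 351 of the 356, and was not for HOXA-AS3, HOXC-AS1, HOXC-AS3, TRD-AS1 and ZNF295-AS1.

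22Rv1 is an established human line that expresses the androgen receptor. The groups were KB02 at 200 µM for 1 h followed by 2 h in fresh medium, KB05 at 200 µM on the same schedule, and DMSO vehicle. Each had 3 biological replicates, collected at 3 h, and all came from this 1 line. The compounds are known here only by these names. Another 15 samples of the series, treated for 8 h with other agents, were not analysed here.

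Antisense RNA genes are transcribed from the strand opposite a sense gene. Some start beside the sense promoter and run away from it, and others start inside or beyond the sense gene and run across its body. Many of their transcripts are short-lived in the nucleus, where the exosome and its adaptors degrade them, and only some have an assigned function. In prostate epithelium, individual antisense RNAs have been studied as partners of hormone-regulated genes.

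Of the 355 antisense genes with a position in GENCODE release 29 (GRCh38), 349 lay on the strand opposite their partner. The symbol alone made them members, and that annotation classes 269 as antisense, 44 as processed transcripts and 32 as intergenic non-coding genes. Others were classed as bidirectional promoter RNAs (4), protein-coding genes (3) or pseudogenes. In 222 pairs the nearest annotated starts on opposite strands lay within 1000 bases, here called head to head, with a median distance of 115.5 bases, and 98 of these pairs lay within 100 bases. Another 124 overlapped the body of the partner without such a shared start. Head-to-head genes may overlap the body as well. Exonic bases were shared with the partner by 284 antisense genes and with any annotated gene by 310, and the median share was 13.01% of exonic length. The labels do not say that the libraries kept the strand, and without it reads from shared bases of a gene and its antisense partner cannot be told apart. The 45 antisense genes with no shared exonic base are therefore given beside the main counts.

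RefSeq promoter windows (GRCh38.p14, 250 bases before to 50 after the start) matched 270 of the 355 distinct antisense symbols, 173 of them head to head. Windows are shown for antisense genes that rose with a compound while the sense partner was not called or fell. They are CYP51A1-AS1 at chr7:92134313-92134612 on the plus strand, RPL26L1-AS1 at chr5:172959319-172959618 on the minus strand and NAXD-AS1 at chr13:110616304-110616603 on the minus strand, each written 5′ to 3′ along the antisense gene. Capitals mark the only searched motif found in each: CCAAT (the NF-Y box) in the first, CCGGAAGT (an ETS box) in the second and TGANTCA (the AP-1 site) in the third.
CYP51A1-AS1: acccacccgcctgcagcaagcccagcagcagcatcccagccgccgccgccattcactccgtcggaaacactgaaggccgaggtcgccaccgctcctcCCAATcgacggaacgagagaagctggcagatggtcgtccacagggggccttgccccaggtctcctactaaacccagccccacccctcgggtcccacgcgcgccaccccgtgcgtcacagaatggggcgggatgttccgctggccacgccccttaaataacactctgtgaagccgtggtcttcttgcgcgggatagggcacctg
RPL26L1-AS1: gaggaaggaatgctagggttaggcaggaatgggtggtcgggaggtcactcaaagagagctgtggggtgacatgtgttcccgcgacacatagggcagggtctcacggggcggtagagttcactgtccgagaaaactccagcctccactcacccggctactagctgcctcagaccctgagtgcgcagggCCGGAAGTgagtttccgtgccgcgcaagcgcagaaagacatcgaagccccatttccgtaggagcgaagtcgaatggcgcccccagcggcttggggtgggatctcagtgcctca
NAXD-AS1: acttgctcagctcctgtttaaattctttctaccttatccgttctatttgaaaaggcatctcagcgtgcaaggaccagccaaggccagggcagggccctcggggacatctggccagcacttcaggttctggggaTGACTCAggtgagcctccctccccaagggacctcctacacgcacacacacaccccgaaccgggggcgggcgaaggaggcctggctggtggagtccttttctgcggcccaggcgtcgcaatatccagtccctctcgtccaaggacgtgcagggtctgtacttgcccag
The RefSeq start of CYP51A1 lies inside the first window, 86 bases upstream of the antisense start. On either strand, CCAAT was in 30.7% of the antisense promoters and 35.7% of all 27305 promoters in the table. The ETS box was in 5.56% of antisense and 4.44% of all promoters, and the AP-1 site in 4.44% of antisense and 7.76% of all promoters. The search also covered TGACGTCA (the CRE), present in 2.96% of antisense and 1.98% of all promoters, and TGACNNNGC (an antioxidant response core), in 17.0% of antisense and 13.6% of all promoters. An AP-1 site with C as its N and GC after it also matches the antioxidant core. A match describes letters in these windows, not binding. The median GC content was 65.3% in antisense promoters and 58.3% in all promoters.

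Antisense genes made up a small part of the RNA. They held 0.298 ± 0.0136% of all counts in KB02 libraries, 0.283 ± 0.00414% in KB05 libraries and 0.244 ± 0.00403% in DMSO libraries (SD, n = 3 each). TUBA1B-AS1, which had the most counts of them, varied widely between libraries, and without it the shares were 0.276%, 0.258% and 0.23% for KB02, KB05 and DMSO. The median antisense gene had a mean of 3.76 CPM in KB02 libraries, 4.02 CPM in KB05 libraries and 3.38 CPM in DMSO libraries (CPM, counts scaled by the library total and TMM factor). Per kilobase of exon in DMSO libraries, the antisense gene stood at a median of 43.6% of its partner's level over 345 pairs. It was above the partner in 114 pairs and under 10% of it in 65 pairs. Library totals ran from 15506975 to 21900548 counts, so that 3 counts correspond to 0.129 CPM in the deepest library, KB02 replicate 1. The 3 libraries of a group were biological replicates of a single line. The p-values weigh a difference between groups against the spread of replicates, estimated over all 9 libraries together.

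After KB02, more antisense genes rose than fell. Of the 356, 80 were higher and 29 lower than in DMSO libraries (edgeR quasi-likelihood test, Benjamini-Hochberg adjusted p under 0.05 over 18379 genes), which is 22.5% and 8.15%. Over all genes tested, 22.8% were higher and 23.3% lower. The share that rose was thus near the background, and the share that fell was under it. The median log2 fold change was 0.11 for the antisense genes, against 0.00 for all genes. At least 2-fold were 24 of the rises and 9 of the falls, where 6.04% and 6.28% of all genes passed that size in each direction. The lower count depended on 1 library, at 19 without KB02 replicate 2.

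After KB05, 96 antisense genes were higher and 35 lower than in DMSO libraries, or 27% and 9.83%. Over all genes tested, 18.7% were higher and 21.1% lower. The median log2 fold change was 0.21, against 0.00 for all genes. At least 2-fold were 34 rises and 15 falls, where 4.97% and 2.7% of all genes passed that size. KB02 and KB05 were compared with the same 3 DMSO libraries, so the rows of both comparisons are not independent. When antisense genes were chosen by the DMSO sum alone, at least 67, there were 338 of them. Of these, 71 were higher and 31 lower after KB02 (21.0% and 9.17%), and 87 were higher and 36 lower after KB05 (25.7% and 10.7%). A choice by the DMSO libraries alone favours genes that chance made high there. Of the 45 antisense genes with no shared exonic base, 9 rose and 1 fell after KB02, and 12 rose and 1 fell after KB05. Antisense counts were low, with a median summed count of 630 beside 1891 for all genes tested, and a median standard error of 0.22 and 0.23 on the log2 scale for KB02 and KB05 against 0.13 and 0.14 for all genes. The part of this larger error in the counts was not tested.

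**Figure D1:**
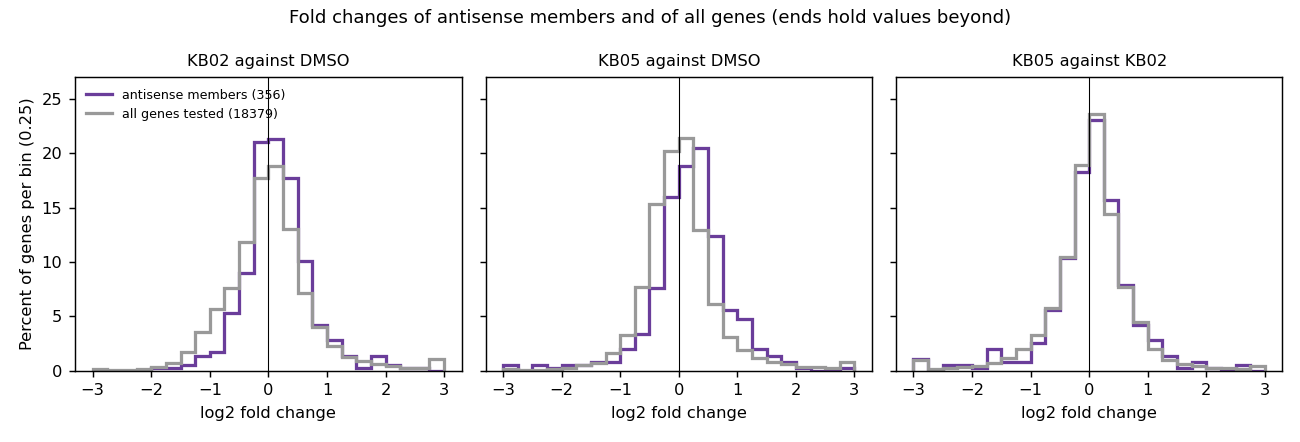
Percent of genes in bins of log2 fold change for the 356 antisense genes (purple) and all 18379 genes tested (grey), one panel per comparison, with the outermost bins holding values beyond. The antisense curve lies to the right of the grey one after KB02 (medians 0.11 and 0.00) and after KB05 (medians 0.21 and 0.00), and close to it for KB05 against KB02 (medians 0.10 and 0.06).

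Some antisense genes reached the sum of 200 only through the group in which they are high. For 28 of the 356 the 6 libraries outside the highest group summed to under 133 counts, the same minimum per library, and the highest group was KB02 for 17, KB05 for 8 and DMSO for 3. Among the genes named here these are ZNF350-AS1, RPL26L1-AS1, DHX9-AS1 and EHBP1-AS1 with KB02, NAXD-AS1, FAM169A-AS1 and BAZ2B-AS1 with KB05, and SLC16A4-AS1, FAM13A-AS1 and LIMD1-AS1 with DMSO. Such a gene had to differ to be chosen, so their values are given as a description, and no p of theirs is read as support.

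The largest rises after KB02 were of antisense genes that had few counts in DMSO libraries. ZNF350-AS1, opposite a zinc-finger repressor gene at chr19:51949134-51981367, stood at 6.29, 4.37 and 4.99 CPM in KB02 libraries, 1.15, 0.715 and 0.23 CPM in KB05 libraries, and 0.688, 0.516 and 1.28 CPM in DMSO libraries. Only the KB02 libraries were high, 6.38-fold above DMSO (log2 2.67 ± 0.36 SE), and its summed counts were 333 in KB02 libraries, 37 in KB05 libraries and 44 in DMSO libraries. It shares no exonic base with another annotated gene, and its partner ZNF350 rose less, by 1.0 on the log2 scale. CACTIN-AS1, opposite a spliceosome-associated gene, stood at 14.9, 11.6 and 13.6 CPM in KB02 libraries, 1.2, 1.24 and 2.13 CPM in KB05 libraries, and 3.55, 2.43 and 1.7 CPM in DMSO libraries. The KB02 libraries were again apart from both others, 5.17-fold above DMSO (log2 2.37 ± 0.21, adjusted p = 6.37e-10). CACTIN rose by 1.2, and 54.1% of the antisense exons are shared with it. RPL26L1-AS1, beside a ribosomal protein gene, has an annotated start 32 bases from that gene's in GENCODE release 29, while the RefSeq starts lie 639 bases apart. It stood at 3.28, 3.56 and 3.16 CPM in KB02 libraries, 1.25, 1.11 and 1.09 CPM in KB05 libraries, and 0.529, 0.723 and 0.973 CPM in DMSO libraries. The KB02 level was 4.5-fold that of DMSO, on summed counts of 212 in KB02 libraries, 60 in KB05 libraries and 40 in DMSO libraries, while RPL26L1 differed by 0.08 ± 0.07 (adjusted p = 0.432).

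The other KB02 rises named by size were UBE2D3-AS1 (log2 2.10), MATN1-AS1 (1.95), FBXL19-AS1 (1.89), DHX9-AS1 (1.87) and GLIPR1-AS1 (1.85). Their partners encode a ubiquitin-conjugating enzyme, a cartilage matrix protein, an F-box protein that binds CpG islands, an RNA helicase and a glioma pathogenesis-related protein. FBXL19-AS1 averaged 10.4 ± 1.09 CPM in KB02 libraries, 3.48 ± 0.572 in KB05 libraries and 2.80 ± 0.664 in DMSO libraries (SD, n = 3 each). FBXL19 rose with both compounds, by 0.86 after KB02 and 0.80 after KB05, while the antisense gene passed the test only after KB02 and was 2.97-fold lower with KB05 than with KB02 (adjusted p = 1.97e-08). MATN1 was itself at the floor of detection, with means of 0.135, 0.248 and 0.093 CPM in KB02, KB05 and DMSO libraries, while MATN1-AS1 averaged 6.35, 3.97 and 1.65 CPM. DHX9-AS1 rose although DHX9 fell by 0.26, and its position was not in the annotation used.

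Falls after KB02 were smaller. SLC16A4-AS1, opposite a monocarboxylate transporter family gene, stood at 0.948, 0.63 and 1.94 CPM in KB02 libraries, 0.521, 0.325 and 0.287 CPM in KB05 libraries, and 4.6, 5.21 and 2.49 CPM in DMSO libraries. Neither treated group overlapped DMSO, with levels 3.58-fold lower after KB02 and 10.6-fold lower after KB05. Its summed counts were 71 in KB02 libraries, 20 in KB05 libraries and 229 in DMSO libraries. SLC16A4-AS1 reached the minimum sum only through the DMSO libraries. Its separation from DMSO was thus partly required by the choice, and is given as a description. SLC16A4 fell by 1.05 after KB02 and differed by -0.26 ± 0.21 after KB05 (adjusted p = 0.347). PPP3CB-AS1, beside the calcineurin catalytic subunit gene PPP3CB, averaged 1.76 ± 0.161 CPM in KB02 libraries, 2.72 ± 0.146 in KB05 libraries and 5.62 ± 0.403 in DMSO libraries (SD, n = 3 each). It fell 3.19-fold after KB02 and 2.06-fold after KB05, and PPP3CB passed neither test. CERS6-AS1, STPG3-AS1, TFAP2A-AS1, FAM13A-AS1, SLC25A21-AS1 and SLC25A5-AS1 fell by 1.28, 1.14, 1.12, 1.10, 1.07 and 1.01. Some of these calls were lost when 1 library was left out. The adjusted p of CERS6-AS1 was 0.0672 without KB02 replicate 3, at a log2 fold change of -1.24, and 0.059 with the replicate number as a block. The adjusted p of TFAP2A-AS1 was 0.0734 without KB02 replicate 2, and that of FAM13A-AS1 0.0595 without DMSO replicate 2 and 0.0823 without KB02 replicate 2.

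PARD6G-AS1 showed the largest antisense change after KB05. This gene lies at chr18:80147924-80178432 on the plus strand, opposite PARD6G, a cell polarity scaffold gene, and shares no exonic base with another annotated gene. It stood at 9.78, 9.64 and 6.98 CPM in KB02 libraries, 44.9, 53.0 and 71.0 CPM in KB05 libraries, and 3.92, 2.74 and 2.98 CPM in DMSO libraries. The 3 groups did not overlap, and the rise over DMSO was 17.5-fold after KB05 (log2 4.13 ± 0.23, adjusted p = 6.74e-07) and 2.75-fold after KB02 (log2 1.46 ± 0.26, adjusted p = 0.00124). PARD6G had the opposite order of the treated groups, at 13.6, 11.4 and 13.1 CPM in KB02 libraries, 8.18, 7.41 and 9.31 CPM in KB05 libraries, and 2.91, 3.15 and 2.86 CPM in DMSO libraries. Sense RNA therefore rose more after KB02 (log2 2.09 ± 0.15) and antisense RNA more after KB05. Per kilobase of exon the pair was level in DMSO libraries, with 0.70 CPM per kb for PARD6G-AS1 and 0.704 for PARD6G.

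CYP51A1-AS1, which shares a start region with the lanosterol demethylase gene of cholesterol synthesis, stood at 2.46, 2.30 and 2.05 CPM in KB02 libraries, 4.43, 5.20 and 4.54 CPM in KB05 libraries, and 1.22, 1.34 and 1.09 CPM in DMSO libraries. The groups were fully separated, with a rise of 3.85-fold after KB05 (adjusted p = 1.75e-07) and 1.86-fold after KB02 (adjusted p = 0.00431). Of its exonic bases 4.67% are shared with CYP51A1, which moved the other way, with a fall of 0.34 after KB05 and of 0.77 after KB02. NAXD-AS1, beside a gene for the repair of damaged NAD(P)H, stood at 1.29, 0.856 and 0.776 CPM in KB02 libraries, 2.5, 2.02 and 2.7 CPM in KB05 libraries, and 0.635, 0.981 and 0.669 CPM in DMSO libraries. Only the KB05 libraries were apart, 3.13-fold above DMSO, on summed counts of 63 in KB02 libraries, 126 in KB05 libraries and 42 in DMSO libraries. NAXD fell by 0.22 after KB05. FAM169A-AS1 (log2 2.01), TMEM202-AS1 (1.94), FAM131B-AS2 (1.76), RALGPS2-AS1 (1.64) and BAZ2B-AS1 (1.61) completed the named KB05 rises. Of their partners, FAM169A, RALGPS2 and BAZ2B were tested and none was called after KB05. TMEM202 was listed at 0 in every library, and FAM131B averaged 0.272 CPM in KB05 libraries and 0.203 CPM in DMSO libraries. FAM131B-AS2 was the 1 gene annotated on the same strand as its partner, so its name and that annotation differ.

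Falls after KB05 were larger than those after KB02. FAM13A-AS1, opposite a gene linked to lung disease, stood at 2.59, 0.721 and 1.44 CPM in KB02 libraries, 0.573, 0.325 and 0.345 CPM in KB05 libraries, and 2.65, 3.98 and 3.65 CPM in DMSO libraries. The KB05 libraries were the lowest, 8.02-fold under DMSO (log2 -3.0 ± 0.41), while FAM13A differed by 0.09 ± 0.13. EHBP1-AS1, opposite an endocytic adaptor gene, stood at 3.71, 2.57 and 2.83 CPM in KB02 libraries, 0.104, 0.39 and 0.46 CPM in KB05 libraries, and 1.59, 1.65 and 1.58 CPM in DMSO libraries. It was high with 1 compound and low with the other. It was 1.89-fold above DMSO after KB02 and 5.09-fold under it after KB05. ZFHX2-AS1, opposite a zinc-finger homeobox gene, averaged 1.70 ± 0.653 CPM in KB02 libraries, 0.663 ± 0.489 in KB05 libraries and 3.27 ± 0.428 in DMSO libraries (SD, n = 3 each). Its log2 fold change after KB05 was -2.30, and -3.09 without KB05 replicate 3. IDI2-AS1, RPL30-AS1, LIMD1-AS1 and SEMA3F-AS1 fell by 2.03, 1.93, 1.85 and 1.62 after KB05. Of their partners RPL30, a ribosomal protein gene, fell by 0.24. LIMD1 and SEMA3F were not called, and IDI2 was near 0.

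**Figure D2:**
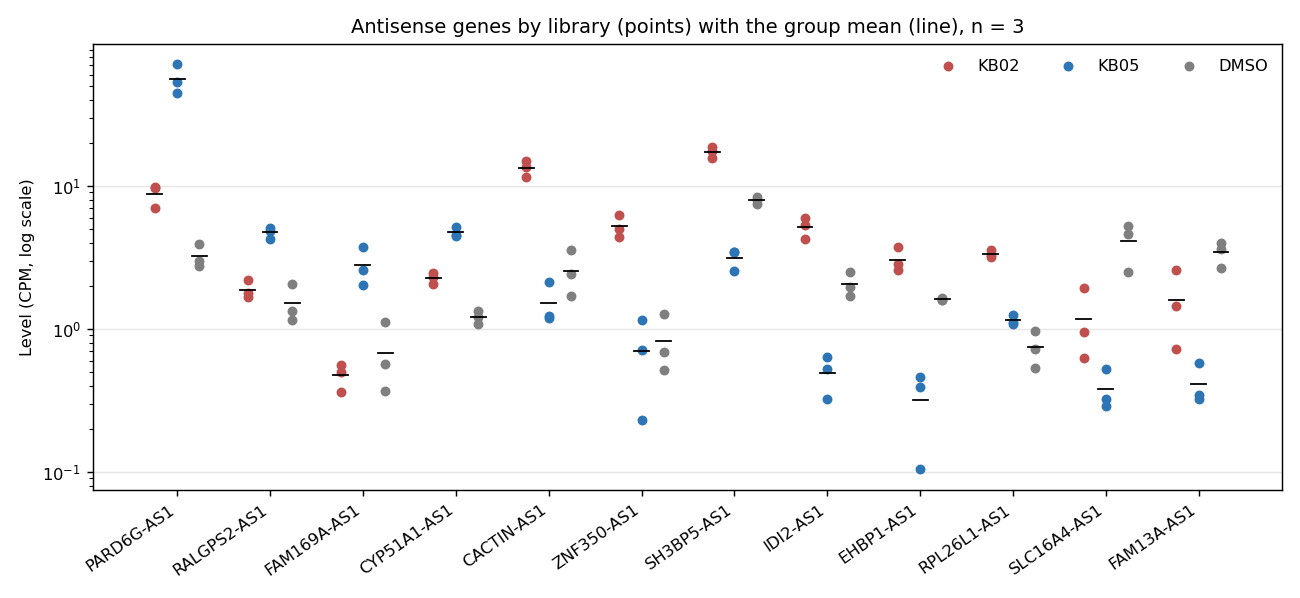
CPM on a log scale for 12 antisense genes in each library, as points, with the mean of 3 as a line, for KB02 (red), KB05 (blue) and DMSO (grey). PARD6G-AS1 is highest in the KB05 libraries (44.9 to 71.0 CPM), while CACTIN-AS1 is highest in the KB02 libraries (11.6 to 14.9 CPM) and SLC16A4-AS1 in the DMSO libraries (2.49 to 5.21 CPM).

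The compounds were then compared directly at the same dose and time, a single pair. Between KB05 and KB02 libraries, 67 antisense genes were higher with KB05 and 51 lower, or 18.8% and 14.3%, beside 21.8% and 18.2% of all genes tested. The higher count was 43 without KB02 replicate 1. The split also depended on scaling. With library size as the only scaling it was 49 higher and 68 lower, and the median over all genes moved by -0.11 in this comparison and by 0.13 in KB02 against DMSO.

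The largest differences ran in both directions. IDI2-AS1, opposite a gene for an isopentenyl diphosphate isomerase, stood at 0.521, 0.325 and 0.632 CPM in KB05 libraries, against 5.30, 4.28 and 5.99 CPM in KB02 libraries. With 2.49, 1.96 and 1.70 CPM in DMSO libraries it lay between them, and the KB05 level was 10.3-fold under that of KB02 (log2 -3.36 ± 0.30, adjusted p = 1.31e-10). Of its exonic bases, 57.68% are shared with other annotated genes. SH3BP5-AS1, opposite a gene for a RAB11 exchange factor, stood at 2.55, 3.45 and 3.45 CPM in KB05 libraries, against 18.7, 15.6 and 17.5 CPM in KB02 libraries, with 7.51, 8.00 and 8.33 CPM in DMSO libraries. It rose 2.17-fold after KB02 and fell 2.53-fold after KB05, and the compounds differed by 5.51-fold (adjusted p = 2.79e-14), and 34.45% of its exonic bases are shared with SH3BP5. EHBP1-AS1, CACTIN-AS1 and ZNF350-AS1 were lower with KB05 by 9.61-fold, 8.76-fold and 7.33-fold. For ZNF350-AS1 the log2 difference was -2.87, and -3.48 without KB05 replicate 1. PARD6G-AS1 was 6.35-fold higher with KB05, FAM169A-AS1 5.85-fold, TFAP2A-AS1 4.54-fold, BAZ2B-AS1 3.73-fold and FAM131B-AS2 3.64-fold. Several genes named for a change against DMSO were not called between the compounds. UBE2D3-AS1 differed by -0.56 (95% interval -1.15 to 0.02, adjusted p = 0.121), SLC25A5-AS1 by 0.13 (-0.35 to 0.62, adjusted p = 0.695) and LIMD1-AS1 by -0.50 (-1.36 to 0.36, adjusted p = 0.374).

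Changes of antisense genes were weakly related to those of their partners. Over 326 pairs with both genes tested, Spearman's correlation between antisense and sense log2 fold changes was 0.09 after KB02, 0.07 after KB05 and 0.07 for KB05 against KB02. Each value is across gene pairs that share the same libraries and, in 267 pairs, exonic bases. After KB02, both genes were called in 51 pairs, in the same direction in 33 and in opposite directions in 18. After KB05, both were called in 60 pairs, 31 in the same direction and 29 in opposite directions. In 25 of those 29 the antisense gene was higher and the sense gene lower. After KB05, antisense genes were called in 123 of the 326 pairs and sense genes in 158, against 99 and 184 after KB02. Antisense calls after KB05 were mostly rises (96 and 35 falls of all 356), and partner calls mostly falls (93 and 64 rises). Such a majority can arise without a link within pairs, and a link was not tested. For KB05 against KB02, 57 pairs had both called, 30 in the same direction. Among the 267 pairs with shared exonic bases, same and opposite calls were 29 and 12 after KB02 and 28 and 21 after KB05. For KB05 against KB02 they were 25 and 19. Among the 58 pairs with no exonic base shared with the partner, they were 4 and 5, 3 and 8, and 5 and 8. Spearman's correlation in these 58 was 0.01, -0.05 and -0.07 in the same order. The antisense gene alone was called in 48 pairs after KB02 and 63 after KB05. The sense gene alone was called in 133 and 98 pairs, and sense genes have more counts. Among the 322 partners tested, 97 were higher and 85 lower after KB02 (30.1% and 26.4%, beside 22.8% and 23.3% of all genes). After KB05, 64 were higher and 93 lower (19.9% and 28.9%, beside 18.7% and 21.1% of all genes). The median summed count was 4456 for these partners and 1891 for all genes tested.

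**Figure D3:**
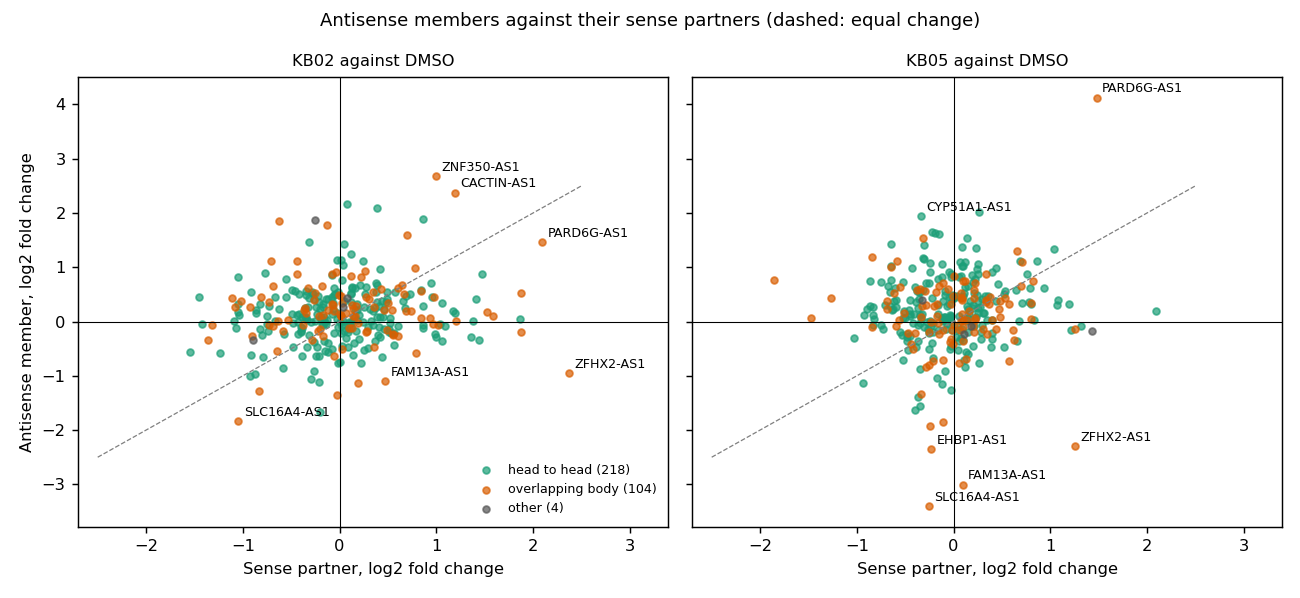
Log2 fold change of each antisense gene (vertical) against that of its sense partner (horizontal) for 326 pairs, after KB02 and after KB05, coloured by arrangement, with equal change dashed. The points form a round cloud (Spearman's correlation 0.09 and 0.07), with PARD6G-AS1 high in both genes after KB05 and ZFHX2-AS1 low beside a sense gene that rose.

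The difference between partners was tested as the log2 ratio of antisense to sense CPM in each library (limma, Benjamini-Hochberg over 510 pairs). After KB02 the ratio was higher in 70 and lower in 41 of the 326 pairs, where 16.9% and 10.6% of all 510 pairs were called. After KB05 it was higher in 87 and lower in 41, where 21% and 11% of all pairs were called. Between KB05 and KB02 it was higher in 68 and lower in 52, with 17.8% and 12.9% of all pairs called. Most of the 510 pairs are these 326, so the shares of all pairs are not an outside reference.

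After KB05 the ratio rose most for PARD6G-AS1, by 2.63 ± 0.19 (limma, adjusted p = 1.62e-09), then for CYP51A1-AS1 (2.20), BRWD1-AS2 (2.02) and GLIPR1-AS1 (1.92). BRWD1-AS2, whose start lies 116 bases from a bromodomain gene with which it shares no exonic base, stood at 1.08, 1.85 and 1.55 CPM in KB02 libraries, 4.27, 3.45 and 3.68 CPM in KB05 libraries, and 1.32, 1.55 and 1.34 CPM in DMSO libraries. BRWD1 fell by 0.65 after KB05, so both genes contributed to the ratio. The ratio fell most for ZFHX2-AS1, by 3.55, then FAM13A-AS1 (2.87), SLC16A4-AS1 (2.86) and EHBP1-AS1 (1.91). FAM13A-AS1 and SLC16A4-AS1 were chosen only through their DMSO counts, and EHBP1-AS1 only through its KB02 counts. Their ratio falls are therefore a description. At ZFHX2 the sense gene averaged 10.4 CPM in KB02 libraries, 4.81 CPM in KB05 libraries and 2.01 CPM in DMSO libraries, so sense and antisense RNA moved in opposite directions with both compounds.

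After KB02 the ratio rose for GLIPR1-AS1 by 2.32 ± 0.31 (limma, adjusted p = 7.07e-06), DHX9-AS1 by 2.00, RPL26L1-AS1 by 1.98 and TMCO1-AS1 by 1.87. TMCO1-AS1 itself was not called (0.46 ± 0.29, adjusted p = 0.211), and the change lay in TMCO1, a gene for a calcium channel of the endoplasmic reticulum, which averaged 110 CPM in KB02 libraries, 229 CPM in KB05 libraries and 301 CPM in DMSO libraries. The ratio fell for ZFHX2-AS1 by 3.28, ZNF433-AS1 by 1.79, CEBPB-AS1 by 1.72 and FAM13A-AS1 by 1.68. DHX9-AS1 and RPL26L1-AS1 were chosen only through their KB02 counts, and FAM13A-AS1 only through its DMSO counts. Their ratio changes are therefore a description. ZNF433-AS1 and CEBPB-AS1 were not called themselves, and their partners rose after KB02. CEBPB, a stress-responsive transcription factor gene, averaged 207 CPM in KB02 libraries, 189 CPM in KB05 libraries and 75.9 CPM in DMSO libraries. GLIPR1-AS1 was the pair named for a higher ratio with both compounds. It averaged 3.36 ± 0.366 CPM in KB02 libraries, 2.14 ± 0.193 in KB05 libraries and 0.926 ± 0.118 in DMSO libraries (SD, n = 3 each), and it shares no exonic base with another gene.

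**Figure D4:**
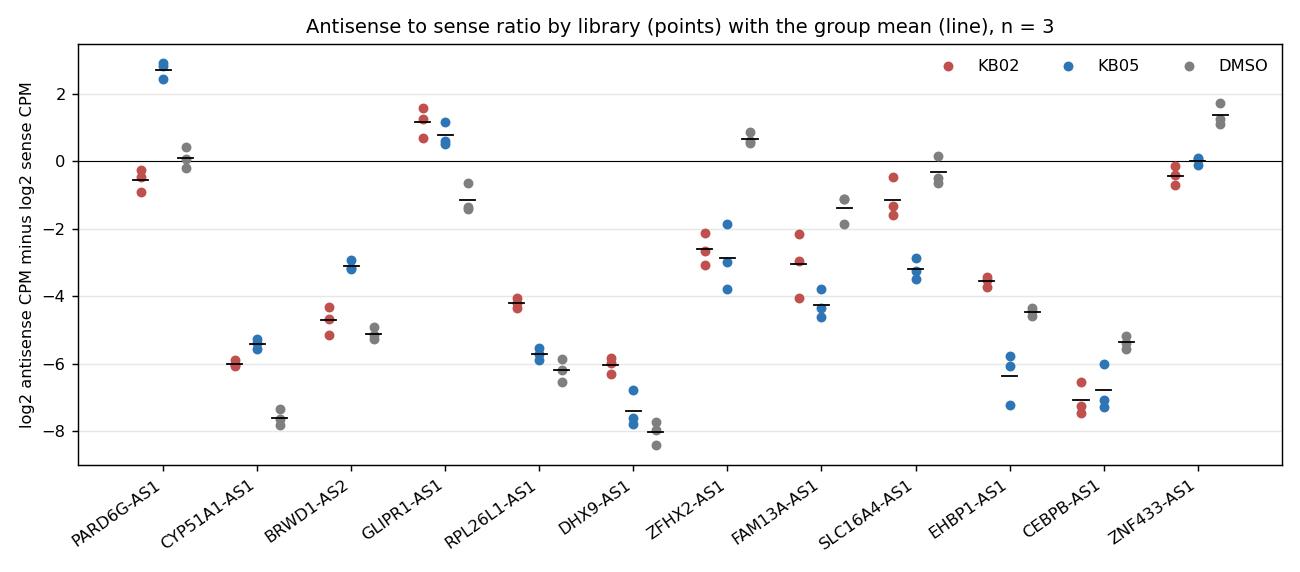
Log2 antisense CPM minus log2 sense CPM in each library (points) with the mean of 3 (line), for 12 pairs in KB02 (red), KB05 (blue) and DMSO (grey) libraries. The PARD6G-AS1 ratio is highest with KB05 (2.44 to 2.92), the ZFHX2-AS1 ratio is positive only in DMSO libraries (0.54 to 0.87), and the GLIPR1-AS1 ratio is negative only in DMSO libraries.

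Arrangement and direction were then set side by side, as a description. Of the 222 head-to-head genes, 42 rose and 19 fell after KB02 (18.9% and 8.56%), and 63 rose and 18 fell after KB05 (28.4% and 8.11%). The other 124 overlap the partner's body without such near starts. Of these, 37 rose and 10 fell after KB02 (29.8% and 8.06%), and 32 rose and 17 fell after KB05 (25.8% and 13.7%). The classes do not divide genes by overlap, since 284 antisense genes share exonic bases with the partner, many of them head to head. Over all genes tested, 22.8% rose and 23.3% fell after KB02, and 18.7% rose and 21.1% fell after KB05. Between KB05 and KB02, head-to-head genes were higher with KB05 in 53 cases and lower in 24 (23.9% and 10.8%). The other 124 were higher in 13 and lower in 26 (10.5% and 21.0%), beside 21.8% and 18.2% of all genes. The difference between arrangements was not tested. Divergent transcript genes, whose symbols end in -DT and which also start beside a coding gene, were counted beside them. Among the 160 with a summed count of at least 200, 36 rose and 13 fell after KB02 (22.5% and 8.12%), and 47 rose and 8 fell after KB05 (29.4% and 5.0%). Of the 8 falls none was 2-fold or more. Between KB05 and KB02, 33 were higher and 11 lower (20.6% and 6.88%). Their difference from antisense genes was not tested.

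**Figure D5:**
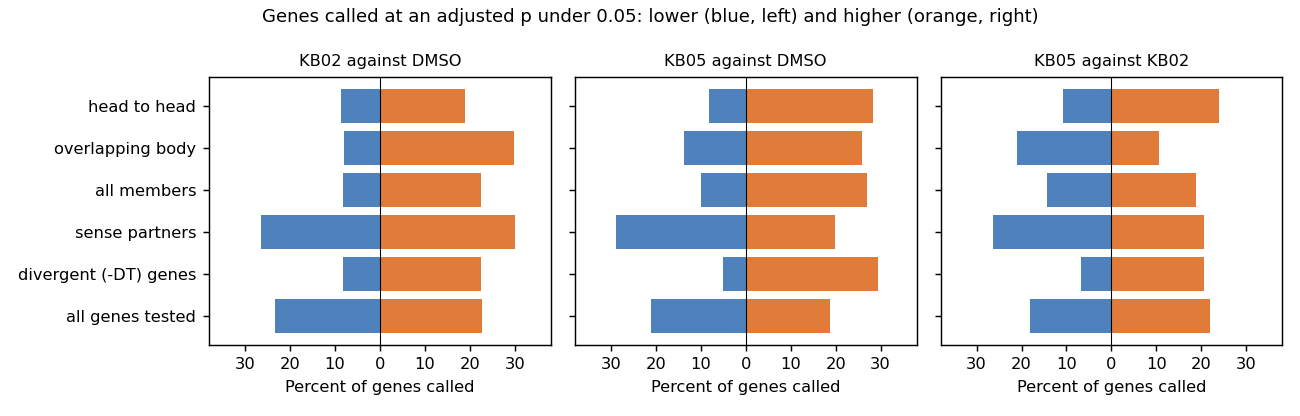
Percent of genes called higher (orange, right) and lower (blue, left) in each comparison, for antisense genes by arrangement, all antisense genes, their sense partners, -DT genes with a summed count of at least 200 and all genes tested. Falls make up 8.15% and 9.83% of antisense genes after KB02 and KB05, against 23.3% and 21.1% of all genes.

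The sense genes TFAP2A, PTOV1, TSPEAR and DNAJC9 each had a pair of antisense genes among those chosen, which allows a look within a locus. At TFAP2A, the locus for transcription factor AP-2 alpha, TFAP2A-AS1 stood at 0.733, 0.405 and 1.11 CPM in KB02 libraries, between 2.99 and 4.01 CPM in KB05 libraries, and 1.59, 1.70 and 1.52 CPM in DMSO libraries. TFAP2A-AS2 stood at 3.15, 1.89 and 2.55 CPM in KB02 libraries, 6.83, 7.80 and 7.24 CPM in KB05 libraries, and 3.49, 4.54 and 3.83 CPM in DMSO libraries. Both were lowest with KB02 and highest with KB05, with no overlap between groups. TFAP2A had the same order with smaller changes, a fall of 0.21 after KB02 and a rise of 0.25 after KB05. The antisense pair shares 25.89% and 27.46% of its exonic bases with TFAP2A. At PTOV1 the pair differed, and PTOV1-AS1 rose by 0.77 and 0.65 after KB02 and KB05, while PTOV1-AS2 differed by -0.07 after KB02 and fell by 0.59 after KB05. TSPEAR-AS1 rose by 0.52 after KB02 and TSPEAR-AS2 was not called with either compound. The pair of identifiers named DNAJC9-AS1 was not called in any comparison.

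The 6 antisense genes with the highest mean CPM in DMSO libraries changed by less than 2-fold where they were called. The 6 with the largest summed counts held 19.3% of all counts of the 356 genes. The latter 6 include CCDC144NL-AS1 and leave out PAX8-AS1. FGD5-AS1 stood at 120, 118 and 116 CPM in KB02 libraries, 85.8, 87.4 and 81.2 CPM in KB05 libraries, and 93.8, 88.7 and 89.4 CPM in DMSO libraries. It rose 1.3-fold after KB02 (adjusted p = 1.89e-05), and per kilobase in DMSO libraries it reached 17.7 CPM against 0.149 for FGD5. OIP5-AS1, a conserved RNA also called cyrano, averaged 72.1 ± 2.06 CPM in KB02 libraries, 78.8 ± 2.06 in KB05 libraries and 75 ± 4.35 in DMSO libraries (SD, n = 3 each), and no comparison was called. PAX8-AS1, beside a developmental transcription factor gene, averaged 39.7 CPM in KB02 libraries, 32.5 CPM in KB05 libraries and 55.1 CPM in DMSO libraries, and fell by 0.47 after KB02 and 0.76 after KB05. C10orf95-AS1 fell by 0.40 and 0.37 after KB02 and KB05, and THAP9-AS1 by 0.20 after KB05. TUBA1B-AS1 stood at 69.4, 237 and 316 CPM in KB02 libraries, 175, 253 and 322 CPM in KB05 libraries, and 147, 129 and 181 CPM in DMSO libraries. Its libraries of 1 group differed more than the groups did, no comparison was called, and 80.21% of its exonic bases are shared with the alpha-tubulin gene TUBA1B.

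Genes of nuclear RNA decay, which acts on many antisense transcripts, were examined as a list. Of 26, 13 rose and 3 (11.5%) fell after KB02 (median 0.21, against 0.00 for all genes). After KB05, 11 rose and 7 fell (42.3% and 26.9%, median 0.16). The shares of all genes tested that rose and fell were 22.8% and 23.3% after KB02, and 18.7% and 21.1% after KB05. The median summed count of this list was 7703, beside 1891 over all genes tested. ZCCHC8, the scaffold of the nuclear exosome targeting complex, averaged 144 CPM in KB02 libraries, 52.7 CPM in KB05 libraries and 51.1 CPM in DMSO libraries, a rise of 1.5 after KB02 beside 0.05 ± 0.08 after KB05. EXOSC4, an exosome core subunit, rose by 0.82 after KB02 and 0.89 after KB05, and RBM7, the RNA-binding partner of ZCCHC8, rose by 0.74 after KB05. Between KB05 and KB02, 3 genes of the list were higher and 6 lower (11.5% and 23.1%), beside 21.8% and 18.2% of all genes. ZFC3H1 of the poly(A) tail exosome connection was lower by 0.67.

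Of 22 genes of the Integrator complex and other early termination factors, 12 rose and 1 fell after KB02 (54.5% and 4.55%). After KB05, 4 rose and 8 fell (18.2% and 36.4%). Over all genes tested, 22.8% rose and 23.3% fell after KB02, and 18.7% rose and 21.1% fell after KB05. The median summed count of this list was 7213, beside 1891 over all genes tested. PCF11, a cleavage and termination factor, averaged 148 CPM in KB02 libraries, 35.5 CPM in KB05 libraries and 51.0 CPM in DMSO libraries. It rose by 1.54 after KB02 and fell by 0.52 after KB05. INTS2, an Integrator subunit, fell by 0.90 and RPRD1B by 1.05 after KB05. With KB05 against KB02, 14 of the 22 were lower and 1 was higher (63.6% and 4.55%), beside 18.2% and 21.8% of all genes. Of 24 genes of double-stranded RNA binding, editing and cleavage (median summed count 4078), 4 rose and 7 fell after KB02 (16.7% and 29.2%). After KB05 none rose and 10 fell (41.7%). DGCR8, the cofactor of microRNA processing, fell by 0.98 after KB02 and 1.42 after KB05, AGO4 fell by 0.86 after KB05, and RIGI, a sensor of double-stranded RNA, rose by 0.88 after KB02. With KB05 against KB02, none of the 24 was higher and 10 were lower (41.7%), including OAS2 (by 0.99). Whether these transcripts bear on the antisense genes was not tested.

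The cells carried the markers of their label. All 15 luminal prostate markers were above the floor, with summed levels of 2680 to 2880 CPM in KB02 libraries, 3570 to 3610 CPM in KB05 libraries and 3170 to 3490 CPM in DMSO libraries. These markers had a median summed count of 19960, beside 1891 over all genes tested. After KB02, 2 rose and 10 fell (13.3% and 66.7%, beside 22.8% and 23.3% of all genes). EPCAM fell by 1.44 and TMPRSS2 by 1.34. After KB05, 6 rose and 4 fell (40.0% and 26.7%, beside 18.7% and 21.1% of all genes). SLC45A3 was higher by 0.57 and TMPRSS2 lower by 0.81. With KB05 against KB02, 13 were higher and 1 lower (86.7% and 6.67%, beside 21.8% and 18.2% of all genes). KLK3 was higher by 0.87. Of 20 markers of other cell types, 13 passed the filter on low counts, and VWF, KRT5 and TP63 were at or under 3 counts in all 9 libraries. The endothelial marker VWF and the basal keratin KRT5 averaged 0.0472 and 0.0144 CPM in KB02 libraries and were at 0 in KB05 and DMSO libraries. The summed level of the 20 was 501 to 535 CPM in KB02 libraries, 883 to 887 CPM in KB05 libraries and 1180 to 1250 CPM in DMSO libraries, carried mostly by ALB and SYP. Without these the sum was 79.5 to 91.6 CPM in KB02 libraries, 76.5 to 83.0 CPM in KB05 libraries and 66.3 to 91.0 CPM in DMSO libraries. ALB fell by 1.52 and 0.56 after KB02 and KB05. CD14 averaged 8.80 CPM in KB02 libraries, 0.397 CPM in KB05 libraries and 0.541 CPM in DMSO libraries, a rise of 4.04 after KB02. COL1A1 rose by 0.65 and 0.45 after KB02 and KB05. The other stromal markers of the list did not show this. ACTA2 differed by -0.34 and -0.31 and was not called, and COL1A2 and DCN did not pass the filter. The part of these shifts in the antisense changes was not tested, and fewer cells of a type and less RNA per cell cannot be told apart in bulk libraries.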

How the data were processed

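RNA libraries of 22Rv1 cells were made by the submitters with the NEBNext Ultra II RNA kit, per the labels' protocols. The deposited table holds estimated counts per gene, not normalized, from Salmon 1.3.0 on hg38 (GRCh38.p13), per the submitters' processing notes, which also name DESeq2 1.30.1. Neither the transcript annotation nor the strand setting is given in those sources. Of 60232 identifiers, 60064 were matched to a name.

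The deposited estimated counts were rounded and tested with edgeR 4.0.16 (R 4.3.3): filterByExpr with a minimum count of 10, TMM factors (0.9376 to 1.066), 1 robust quasi-likelihood fit of all 9 libraries, and Benjamini-Hochberg adjustment over 18379 genes at 0.05. All 356 antisense genes passed this filter. Ratios were tested with limma 3.58.1 on log2 CPM with a prior count of 2. Alternatives included other scalings, no filter, DESeq2 1.42.0, a 2-group fit, and leaving out each library. Floors of 3 counts cover counting error only, and the intervals of fitted differences include the spread between replicates. Between replicate libraries the chi-square per degree of freedom, a ratio of variance to counting variance, was 4.39 to 10.5. On counts simulated for KB02 against DMSO over 18379 genes, 77.5% of 200 changes of 3-fold were recovered. Members and lists were chosen with earlier results of these data known. Named genes were the 8 largest called rises and falls per comparison with DMSO whose libraries did not overlap, 5 each way for KB05 against KB02, the 4 largest ratio changes each way, the 6 highest in DMSO, those nearest the count threshold, and 2 of each list, of which some are not reported here. Genes at loci with a pair of antisense genes lie outside that rule and were chosen after their values were seen.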

Additional observations from a re-analysis of the deposited data

How the results depend on the processing

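Of the named log2 fold changes, 667 alternative values kept their direction and side of the threshold and 5 no longer passed. The values that no longer passed were of CERS6-AS1 (-1.26 with the replicate block, adjusted p = 0.059, and -1.24 without KB02 replicate 3), TFAP2A-AS1 (-0.77 without KB02 replicate 2) and FAM13A-AS1 after KB02 (-0.93 without DMSO replicate 2 and -0.70 without KB02 replicate 2), all by edgeR. The cause was not tested. Counts of antisense genes higher and lower under the alternatives that leave out 1 library ran from 70 to 83 and 19 to 30 for KB02, from 78 to 97 and 30 to 36 for KB05, and from 43 to 68 and 43 to 55 for KB05 against KB02. Ratio calls ran from 91 to 115, 102 to 130 and 107 to 120 in the same order. Fewer genes were counted by construction when only those with no exonic base shared with another gene were kept (9 and 1, 12 and 1, 9 and 4), with none shared with the partner (12 and 2, 16 and 4, 12 and 7), or with a sum of at least 500 (41 and 31 for KB05 against KB02). The first 2 of these were chosen after seeing the data. Scaling by library size alone turned the antisense median for KB05 against KB02 to -0.011, beside 0.10. DESeq2 gave 66 and 22, 74 and 30, and 47 and 45.

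Samples of the same replicate number in different groups correlated between -0.041 and 0.081, so the numbers were not taken to pair them. With the replicate block the counts were 79 and 28 for KB02, 98 and 36 for KB05, and 71 and 52 for KB05 against KB02, and the ratio calls 112, 126 and 125. The median standard error was 0.30 for antisense genes with a sum under 500, beside 0.16 for those at 500 or more.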
